A study of Mus musculus with 12 samples.

Results

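The comparison set the terminal ileum of 3 female mice with the genotype label IL10 against that of 3 female mice with the genotype label C57, all born to mothers exposed to the cecal contents called STAT. The 6 samples were chosen by their description labels and were 6 of the 12 samples of the series. In the study, IL10 deficient or C57BL/6 pups were born to mothers given control or antibiotic-perturbed (STAT) cecal contents, with 3 mice in each of the 4 groups. The groups are called here IL10_STAT (label IL10, STAT contents), WT_STAT (label C57, STAT contents), IL10_control (label IL10, control contents) and WT_control (label C57, control contents). The inoculum was given to the mothers in all 4 groups, and no group without an inoculum was analysed here. The labels state no age, litter, mother or cage, and do not name the allele behind the label IL10. Mice of 1 group may share a mother or a cage, so a p-value covers only how these 6 or 12 samples varied. Total RNA was hybridised to NanoString probes for 547 genes, and each value is the authors' normalized signal.

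Interleukin-10 is a cytokine of T cells and macrophages that restrains inflammatory gene expression in myeloid cells, through a receptor that activates the transcription factor STAT3. Mice that lack it can develop inflammation of the bowel that depends on gut microbes. In the ileum, epithelial cells secrete mucus and antimicrobial proteins, resident macrophages take up bacteria and debris, and Peyer's patches hold B cell follicles.

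The Il10 signal did not follow the genotype label. Its signal was 31.6, 49.2 and 38.6 in the samples labelled IL10, against 0 in each sample labelled C57. The labels' groups did not overlap, and the gene was listed at 0 in the C57-labelled mice under this inoculum (log2 difference 5.33 ± 0.38, adjusted p = 2.55e-06). The control inoculum gave 35.2, 74.4 and 24.9 in the samples labelled IL10 and 0.452, 1.02 and 0 in those labelled C57. The position of the probe on the transcript is unknown here, and if it lies outside what the allele removes, the signal checks nothing about the genotype. Every direction below is therefore between samples as labelled.

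The 6 samples separated by genotype label. With samples set to equal medians, correlations over tested genes were 0.961 to 0.987 within IL10_STAT, 0.956 to 0.971 within WT_STAT and 0.698 to 0.801 between the groups. Counts above background, recovered from the step size of the values, were 541733 to 717454 in IL10_STAT and 191012 to 276579 in WT_STAT. Genotype label and these counts cannot be told apart. Among the WT_STAT samples, WT_STAT 3 had the lowest total signal (270388, against 358264 and 379011 in the other 2), and genes of B cells and lymphoid tissue were low in it. Results that rest on it are given with and without it. A bulk sample does not tell fewer cells of a type from less RNA per cell.

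Values are compared as log2(signal + 1), a scale on which the change of low genes depends on the 1 added. A log2 difference is IL10_STAT minus WT_STAT with its standard error (n = 3 and 3). Genes that reached a signal of 20 in 3 or more of the 12 samples were tested, and those with an adjusted p below 0.05 in limma's test are said to have passed. Of 457 tested genes, 236 passed (51.6%), with 183 higher (40% of the tested genes) and 53 lower (11.6%) in IL10_STAT. All 3 IL10_STAT samples lay above all 3 WT_STAT samples for 216 genes (47.3%) and below them for 79 (17.3%). The median difference over the tested genes was 0.50, so the panel as a whole was shifted up. With the sample medians set equal, 136 genes were higher (29.8%) and 145 lower (31.7%). All 53 lower genes and 136 of the 183 higher genes passed in the same direction on both scales, and 92 further genes became lower. Without 1 sample the number of lower genes was 29 (without WT_STAT 1), 32 (WT_STAT 2), 66 (WT_STAT 3), 35 (IL10_STAT 1 or 2) and 42 (IL10_STAT 3), and the panel median was 0.24 without WT_STAT 3. A difference between 0 and 0.50 is therefore called neither an increase nor a decrease here. At least a 2-fold difference was fitted for 151 genes upward and 36 downward, and at least an 8-fold difference for 41 upward and 2 downward. For genes near 0 in WT_STAT these fitted folds depend on the 1 added. Some of the 41 have a least fold, defined below, of under 8.

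**Figure D1:**
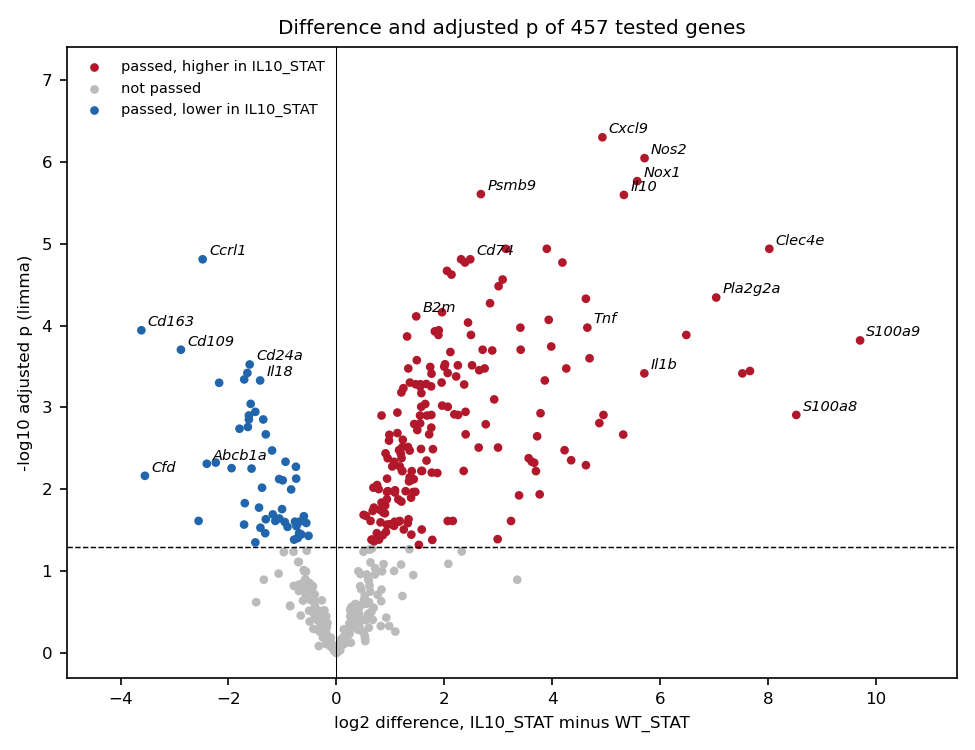
Each point is 1 of the 457 tested genes, with the log2 difference IL10_STAT minus WT_STAT on the x axis and -log10 of limma's adjusted p on the y axis. The dashed line marks an adjusted p of 0.05: 183 genes lie above it to the right, with S100a9 and S100a8 farthest out when all samples are used, and 53 to the left, with Cd163 and Cfd farthest out.

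A gene under 20 in every WT_STAT sample could enter the test only through another group. For such a gene the fold is the least it can be, taking that group at 20, and 42 genes had such a bound upward and 4 downward. The gene lists below hold genes of a pathway or cell type, and their counts are read against the 40% higher and 11.6% lower of the whole panel. A gene under 20 in every WT_STAT sample could hardly be called lower. The count of a list rich in such genes is therefore partly set by the filter.

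Genes of neutrophils and of neutrophil recruitment led the increases in IL10_STAT. S100a8 and S100a9 encode the subunits of calprotectin, an antimicrobial protein of neutrophils that is measured in stool as a marker of gut inflammation. S100a8 had a signal of 1009, 4613 and 2764 in IL10_STAT, against 24.4, 9.23 and 0 in WT_STAT (log2 difference 8.52 ± 1.58, adjusted p = 0.00124). Its difference moved with single samples, to 7.18 without WT_STAT 3, below the 7.99 of Clec4e, and to 9.52 without WT_STAT 1 and 9.13 without IL10_STAT 1. S100a9 had 698, 2650.0 and 1853 in IL10_STAT and 4.10, 0.162 and 0 in WT_STAT, which is at least 71.9-fold higher (adjusted p = 0.000152). The groups were far apart for both genes, and within IL10_STAT the first mouse was the lowest for both.

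The chemokines that attract neutrophils through Cxcr2 rose as well. Cxcl3 had a signal of 59.01, 530.4 and 226 in IL10_STAT and 0, 0.162 and 0 in WT_STAT (at least 9.21-fold, adjusted p = 0.000384), and Cxcl1 131, 289.8 and 124 against 5.66, 0 and 0 (at least 8.02-fold, adjusted p = 0.00013). Their receptor Cxcr2 had 45.6, 74.1 and 83.1 in IL10_STAT and 0, 2.75 and 2.12 in WT_STAT (at least 3.17-fold). Both chemokines and the receptor were above 40 in every IL10_STAT mouse and under 10 in every WT_STAT mouse. Clec4e, the receptor Mincle for microbial glycolipids, was at least 13-fold higher, with 139, 427 and 339 in IL10_STAT and 0, 0.162 and 0 in WT_STAT. Trem1, an activating receptor of neutrophils and monocytes, had 35.8, 60.2 and 46.9 in IL10_STAT and 0, 0 and 0.708 in WT_STAT (at least 2.27-fold). Il1r2, a decoy receptor for IL-1, was at least 5.82-fold higher, and Clec5a, another myeloid activating receptor, at least 5.03-fold. Of 19 genes on the neutrophil list, 12 were tested, 10 passed as higher and 0 as lower, with a median of 5.13 against 0.50 over the panel. Most of the tested members were under 20 in every WT_STAT sample and entered the test only through other groups. A lower call was hardly open to them, and the median depends on the 1 added, so both are a description only. Camp, the cathelicidin of granules, was among those that did not pass (0.616, 87.1 and 32.9 in IL10_STAT and 0, 0 and 3.54 in WT_STAT). The summed signal of the 15 members in the panel, tested or not, was 2491 to 9292 in the IL10_STAT samples and 28.3 to 155 in the WT_STAT samples.

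**Figure D2:**
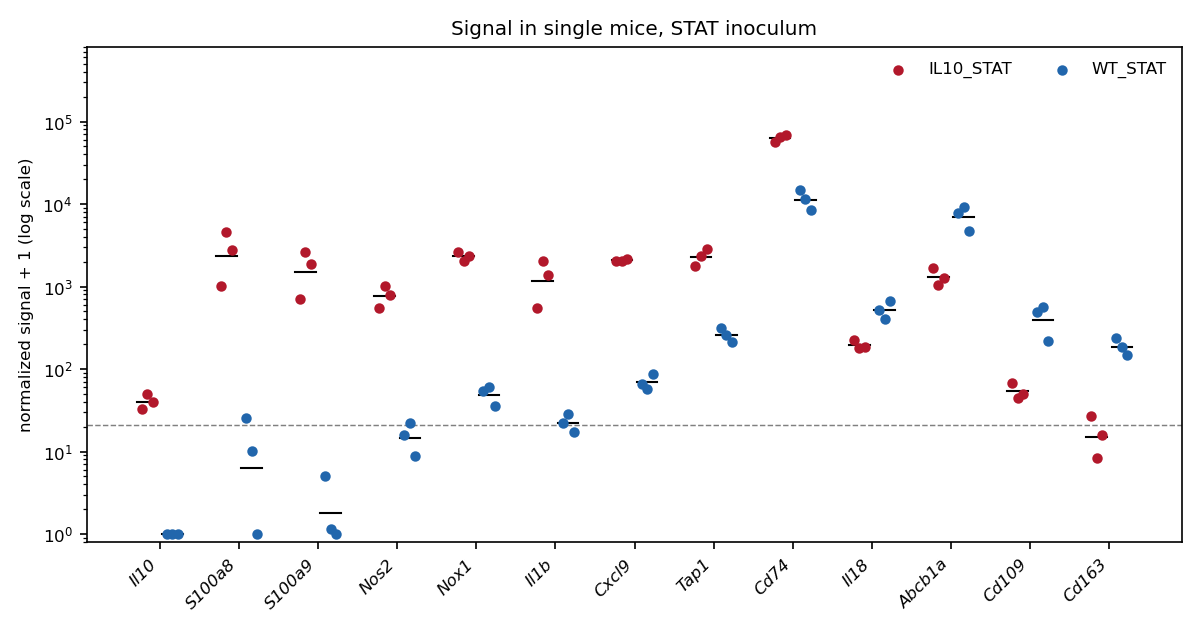
Points are the signal plus 1 of each mouse on a log axis, for 13 genes, with IL10_STAT left of WT_STAT within each gene, and black bars mark the geometric mean of signal plus 1. The dashed line is a signal of 20. Nos2, Nox1, Cxcl9 and Tap1 show groups far apart with small spread, S100a8 and Il1b a wide spread within IL10_STAT, and Il18, Abcb1a, Cd109 and Cd163 lie lower in IL10_STAT.

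Enzymes that make oxidants and antimicrobial proteins formed a second set of large increases. Nos2, the inducible nitric oxide synthase, had a signal of 551, 1009 and 792 in IL10_STAT and 15.02, 20.9 and 7.79 in WT_STAT (52.3-fold, log2 difference 5.71 ± 0.34, adjusted p = 9.05e-07). Nox1, the NADPH oxidase of gut epithelium, had 2649, 2012 and 2344 in IL10_STAT and 52.5, 59.7 and 34.7 in WT_STAT (47.6-fold, 5.57 ± 0.36, adjusted p = 1.73e-06). Neither gene varied by more than 2-fold among the IL10_STAT mice. Pla2g2a, a secreted phospholipase that kills Gram-positive bacteria and is made by Paneth cells, had 819, 967 and 699.6 in IL10_STAT and 8.78, 1.46 and 9.20 in WT_STAT (at least 39.2-fold, adjusted p = 4.55e-05). C57BL/6 mice are known to carry a disrupted copy of this gene, the labels do not state the strain behind the label IL10, and its part in this difference was not tested. Ncf4, a cytosolic subunit of the phagocyte oxidase, rose by less (1.40 ± 0.34, adjusted p = 0.006, and 0.0532 with equal total signal). Of 7 tested genes of this list, 5 passed as higher and 0 as lower, on both scales.

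Among IL-1 family cytokines, the proinflammatory ones were higher and Il18 was lower. Il1b had a signal of 547, 2030.0 and 1393 in IL10_STAT and 21.3, 27.4 and 16.3 in WT_STAT (5.71 ± 0.87, adjusted p = 0.000384). Il1a had 60.4, 518 and 260.3 in IL10_STAT and was listed at 0 in each sample of WT_STAT (adjusted p = 0.000359). As for the calprotectin genes, the first IL10_STAT mouse was the lowest and the second the highest for both cytokines. Il1rn, the antagonist of the IL-1 receptor, rose to 1491, 1608 and 1548 in IL10_STAT, against 198, 341 and 507 in WT_STAT (2.25 ± 0.33, adjusted p = 0.000306). Il1rl1, the receptor for IL-33, rose by 2.39 ± 0.44, with the first IL10_STAT mouse the highest (760.4, 314 and 315 in IL10_STAT and 83.7, 71.4 and 84.2 in WT_STAT).

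Il18, an IL-1 family cytokine stored in gut epithelium, went the other way. Its signal was 224, 177 and 186 in IL10_STAT and 522, 400.4 and 673 in WT_STAT, with no overlap (-1.41 ± 0.22, adjusted p = 0.000469). Il18rap, the accessory chain of its receptor, was higher (32.98, 37.2 and 22.2 in IL10_STAT and 5.66, 1.46 and 3.54 in WT_STAT, at least 1.48-fold, adjusted p = 0.000202). Casp1, the protease that cleaves the precursors of IL-1β and IL-18, had 4498, 3618 and 4110.1 in IL10_STAT and 3845, 4003 and 3554 in WT_STAT, and the groups overlapped. The list of the IL-1 family and inflammasome had 8 of 14 tested genes higher and 1 lower. With equal medians it had 6 higher and 5 lower.

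Tnf and Il6, which act on many cell types in inflammation, rose from low levels. Tnf had a signal of 189.9, 342 and 244 in IL10_STAT and 19.7, 2.75 and 12.03 in WT_STAT (at least 12-fold, adjusted p = 0.000106). Il6 had 61.1, 86.1 and 45.2 in IL10_STAT and 8.78, 0 and 0.708 in WT_STAT (at least 3-fold, adjusted p = 0.00507). Tnfrsf1b, a TNF receptor of leukocytes, rose by 1.96 ± 0.22, and Cd40, a costimulatory receptor of B cells and myeloid cells, by 2.64 ± 0.57 (1.85 without WT_STAT 3). Lif, another cytokine that signals through gp130, rose by 1.998 ± 0.29 (adjusted p = 0.000319), and Il11ra1, a receptor of the same family, fell to 13.3, 17.2 and 22.97 in IL10_STAT, against 60.3, 44.2 and 33.3 in WT_STAT (adjusted p = 0.0232, and 0.0526 to 0.0805 without WT_STAT 1 or 2 or IL10_STAT 1 or 2). Of 7 tested genes of the IL-6 family, 3 were higher and 2 lower. The TNF superfamily list had 12 of 30 tested genes higher, which is the panel's own share, and 3 lower. Without IL10_STAT 2 or IL10_STAT 3, 7 of them were higher.

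Of the IL-10 signalling list, 4 of 8 tested genes were higher and 0 lower. Besides Il10 itself these included Socs3, an inhibitor of cytokine signalling that STAT3 induces (203, 272 and 196 in IL10_STAT and 46.2, 39.02 and 38.9 in WT_STAT, 2.39 ± 0.49, adjusted p = 0.00213). Il10ra, the ligand-binding chain of the IL-10 receptor, passed at 0.94 ± 0.27, and Bcl3, a nuclear regulator of NF-κB, at 1.44 ± 0.28, but neither passed with equal medians, and Il10ra had an adjusted p of 0.0554 without IL10_STAT 3. Stat3 itself did not pass (0.62 ± 0.24, adjusted p = 0.0546).

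Genes that interferon-gamma induces were higher as a group. Cxcl9, a chemokine that attracts T cells through CXCR3, had the smallest adjusted p of the panel, with a signal of 2060.4, 2053 and 2170.0 in IL10_STAT and 64.9, 55.9 and 85.6 in WT_STAT (30.5-fold, 4.93 ± 0.26, adjusted p = 5.04e-07). Cxcl10, a ligand of the same receptor, had 311, 325 and 433 in IL10_STAT and 11.9, 20.9 and 24.8 in WT_STAT (4.19 ± 0.39, adjusted p = 1.7e-05). Both had a narrow spread within each group. Il12b, the p40 subunit of IL-12 and IL-23, had 40.01, 59.2 and 77.4 in IL10_STAT and 5.66, 1.46 and 3.54 in WT_STAT (at least 2.75-fold). Irgm1, an interferon-inducible GTPase that acts against intracellular bacteria, rose by 2.05 ± 0.20 (3605, 3318 and 4301 in IL10_STAT and 886, 1025 and 798 in WT_STAT). Irf8, a transcription factor of myeloid cells, rose by 1.24 ± 0.21, and Ifngr2, a chain of the interferon-gamma receptor, did not pass (-0.20 ± 0.20). Of 21 tested genes on the interferon-gamma list, 14 were higher and 1 lower (Il18), and with equal medians 12 and 2. Ifng itself was too low to be tested, with 10.5, 33.2 and 27.9 in IL10_STAT and 0, 1.46 and 0 in WT_STAT.

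The promoters of 4 interferon-responsive genes that passed as higher are shown as examples. They were picked because they carry motifs of the factors that interferons activate, so they do not show how common the motifs are. Each window runs 5′ to 3′ from 250 bases before to 50 after the start in RefSeq's GRCm38.p6 annotation, and capitals mark the matches described after them. Irf1, a transcription factor that interferon-gamma induces, was chosen for display after its value was seen (1.13 ± 0.21, adjusted p = 0.00116). It has 2 such windows, of which the first is shown, and the other held none of the motifs searched.
Cxcl10, chr5:92348840-92349139, minus strand: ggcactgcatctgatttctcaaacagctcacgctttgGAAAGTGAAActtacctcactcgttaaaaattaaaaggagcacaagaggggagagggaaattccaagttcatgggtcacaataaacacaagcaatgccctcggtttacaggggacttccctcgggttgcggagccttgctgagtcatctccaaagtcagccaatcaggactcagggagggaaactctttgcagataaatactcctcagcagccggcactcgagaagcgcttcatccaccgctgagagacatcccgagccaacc
Irf1, chr11:53769764-53770063, plus strand: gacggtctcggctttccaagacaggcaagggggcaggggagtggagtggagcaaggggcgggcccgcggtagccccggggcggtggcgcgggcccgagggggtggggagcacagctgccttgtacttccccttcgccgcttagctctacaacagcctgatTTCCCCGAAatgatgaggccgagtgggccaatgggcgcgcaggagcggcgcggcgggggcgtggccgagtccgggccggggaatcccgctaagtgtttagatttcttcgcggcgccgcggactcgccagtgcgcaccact
Irgm1, chr11:48871371-48871670, minus strand: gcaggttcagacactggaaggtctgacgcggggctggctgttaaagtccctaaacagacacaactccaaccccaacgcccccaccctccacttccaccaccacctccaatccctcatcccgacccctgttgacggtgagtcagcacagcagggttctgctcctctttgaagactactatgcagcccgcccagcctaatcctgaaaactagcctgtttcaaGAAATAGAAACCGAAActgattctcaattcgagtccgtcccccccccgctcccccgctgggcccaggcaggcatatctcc
B2m, chr2:122147437-122147736, plus strand: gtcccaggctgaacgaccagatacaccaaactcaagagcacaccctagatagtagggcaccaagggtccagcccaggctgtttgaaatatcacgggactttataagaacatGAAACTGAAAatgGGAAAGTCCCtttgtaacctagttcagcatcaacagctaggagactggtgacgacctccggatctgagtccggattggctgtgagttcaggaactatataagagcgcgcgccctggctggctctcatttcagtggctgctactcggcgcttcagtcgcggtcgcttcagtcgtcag
The window of Cxcl10 holds GAAANNGAAA, the core of the element that interferon regulatory factors bind, at -213 from the start. That of Irgm1 holds this motif at -30 and again, overlapping, at -24, and that of B2m, the light chain of MHC class I, at -139, with a motif of NF-κB, GGGNNTTTCC read on the other strand, at -126. The window of Irf1 holds TTCNNNGAA, the palindrome that STAT dimers bind, at -90. The motifs were searched on both strands in the windows of 344 of the 457 tested genes. TTCNNNGAA was in a window of 26 of 138 higher genes (18.8%), 0 of 36 lower genes and 21 of 170 others (12.4%), against 9.55% of all 27025 mouse genes with a window. GAAANNGAAA was in 13 higher genes (9.42%), 1 lower gene (2.78%) and 9 others (5.29%), against 3.99% of all. GGGNNTTTCC was in 11 higher genes (7.97%), 1 lower gene (2.78%) and 13 others (7.65%), against 1.89% of all. Its share among the higher genes was thus near that of the genes that did not pass. TATAAA, the TATA box, was in 35 higher genes (25.4%), 8 lower genes (22.2%) and 24 others (14.1%), against 15.7% of all. B2m holds it on the other strand at -152, not in capitals. These shares describe the letters only, and no test was made of them. The windows of Tap1 and Psmb9, described next, share 275 bases between the 2 genes on opposite strands and held none of the 4 motifs.

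Of 13 tested genes of MHC class I and the immunoproteasome, 6 were higher, a share near the panel's 40%, and 1 was lower. With equal medians 4 were higher and 3 lower. Among the higher ones, Tap1, which pumps peptides into the endoplasmic reticulum for class I, had a signal of 1789.6, 2311 and 2829 in IL10_STAT and 309.9, 259 and 210.2 in WT_STAT (8.82-fold, 3.14 ± 0.26, adjusted p = 1.16e-05). Psmb9, a subunit of the immunoproteasome, had 1458, 1617 and 2046 in IL10_STAT and 263, 281 and 247 in WT_STAT (6.39-fold, 2.68 ± 0.19, adjusted p = 2.49e-06). B2m had 65035, 77537 and 74166 in IL10_STAT and 27544, 25674 and 24420.4 in WT_STAT (1.48 ± 0.17, adjusted p = 7.74e-05), but with quantile normalization its difference was 0.19 (adjusted p = 0.455). Psmb7, a subunit of the ordinary proteasome, had 1493, 1270.2 and 1318 in IL10_STAT and 1266, 1297 and 1285 in WT_STAT and did not pass on either scale. Mr1, which presents microbial vitamin B metabolites to MAIT cells, was lower, with 34.4, 31.2 and 44.4 in IL10_STAT and 139.8, 132 and 84.2 in WT_STAT (-1.65 ± 0.25, adjusted p = 0.00038).

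For class II, 6 of 8 tested genes were higher and 0 lower on both scales, with a median of 2.22. Ciita, the transactivator that switches class II genes on, had a signal of 940.5, 933 and 1192 in IL10_STAT and 251, 216 and 77.1 in WT_STAT (2.65 ± 0.40, adjusted p = 0.000352). Cd74, the invariant chain, had 56689.5, 64778 and 68611 in IL10_STAT and 14726, 11623 and 8470.0 in WT_STAT (5.58-fold, 2.48 ± 0.23, adjusted p = 1.55e-05). H2-Ab1, a class II beta chain, rose by 2.31 ± 0.21, and H2-DMa, which loads peptides, by 2.44 ± 0.29. The 2 members that did not pass were H2-Ob and H2-DMb2, and H2-Ob, a modulator found mostly in B cells, had 111, 142 and 135 in IL10_STAT and 182, 136 and 48.8 in WT_STAT. WT_STAT 3 was the lowest WT_STAT sample for all of the class II genes named, and without it the list kept 6 higher genes and a median of 2.04.

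On the deposited scale, type I interferon genes were either higher or not called. Ifit2, an interferon-induced inhibitor of translation, had a signal of 971, 1147 and 1015 in IL10_STAT and 101, 72.7 and 44.6 in WT_STAT (14.9-fold, 3.90 ± 0.34, adjusted p = 1.16e-05). Ifi204, a DNA sensor, rose by 2.01 ± 0.29, Tmem173, the adaptor STING, by 1.90 ± 0.24, and Stat2 by 1.77 ± 0.44. Mx1, an antiviral GTPase that interferons induce, had 317, 249 and 297 in IL10_STAT and 325, 349.9 and 213 in WT_STAT, which overlapped. Of 18 tested genes 9 were higher, against 40% of the panel, and 0 lower. With equal medians 7 were higher and 3 lower.

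Of 18 tested genes on the list of CC chemokines and their receptors, 9 were higher on both scales, and 1 was lower, or 3 with equal medians. Ccl2, which draws monocytes, had a signal of 709, 475 and 693 in IL10_STAT and 69.6, 35.1 and 24.8 in WT_STAT (15.3-fold, 3.93 ± 0.46, adjusted p = 8.53e-05). Ccl5, a chemokine of T cells and eosinophils, had 480.4, 943 and 946 in IL10_STAT and 85.2, 85.7 and 94.1 in WT_STAT (3.08 ± 0.31, adjusted p = 2.75e-05). Ccl8, a chemokine made by macrophages, had 1655, 1899 and 2200.5 in IL10_STAT and 595, 323 and 355 in WT_STAT (2.22 ± 0.35, adjusted p = 0.000419). The groups did not overlap for any of the 3. Ccl3 and Ccl4, inflammatory chemokines of myeloid and T cells, rose by 3.67 ± 0.86 and 4.35 ± 1.002, with a wide spread in IL10_STAT (86.4, 539 and 225 for Ccl3). Without single samples their differences were 3.02 (without IL10_STAT 2) to 4.33 (without IL10_STAT 1) for Ccl3, and 3.71 (without WT_STAT 1 or 3) to 5.62 (without WT_STAT 2) for Ccl4. The lower member, Ccl6, is named after its values were seen, and it had 978, 1274 and 1068 in IL10_STAT and 3675, 3363 and 3146 in WT_STAT (-1.62 ± 0.30, adjusted p = 0.00125).

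The cytokines of T helper 17 cells rose to levels just above the filter, while receptor chains of the IL-17 family fell. Il17a had a signal of 23.8, 29.2 and 44.4 in IL10_STAT and 0.975, 0 and 0 in WT_STAT (at least 1.54-fold, adjusted p = 0.000251), and Il17f 24.5, 26.2 and 21.3 in IL10_STAT and 0, 4.05 and 0 in WT_STAT (at least 1.19-fold, adjusted p = 0.000469). Batf, a transcription factor of these cells, rose by 1.76 ± 0.33. Il17rb, the receptor chain for IL-25, fell to 42.1, 40.2 and 38.6 in IL10_STAT, against 152, 128 and 95.5 in WT_STAT (-1.59 ± 0.28, adjusted p = 0.000905), and Il17re, the receptor chain for the epithelial cytokine IL-17C, was lower by the same measure (-1.80 ± 0.36). The list had 3 of 11 tested genes higher and 2 lower, or 3 and 5 with equal medians. Il22, an inducer of epithelial antimicrobial proteins, was not tested, with 9.76, 3.24 and 0 in IL10_STAT and 0 in each sample of WT_STAT.

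Among type 2 genes, Tslp, an epithelial alarmin, fell to 13.98, 18.2 and 13.1 in IL10_STAT, against 44.7, 55.9 and 44.6 in WT_STAT (at least 2.34-fold lower, adjusted p = 0.0014). Gata3, the transcription factor of type 2 lymphocytes, rose by 1.68 ± 0.31, and Il4ra, the receptor chain shared by IL-4 and IL-13, by 1.22 ± 0.26. The list had 6 of 10 tested genes higher and 1 lower, or 4 and 3 with equal medians.

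T cell genes were higher, and B cell genes were not called in either direction. Cd3e, a chain of the T cell receptor complex, had a signal of 112, 144 and 143 in IL10_STAT and 55.6, 36.4 and 30.4 in WT_STAT (1.72 ± 0.35, adjusted p = 0.00213), and Cd3d rose by 1.33 ± 0.20. Cd6, a T cell adhesion receptor, was at least 2.76-fold higher, and Cd5, an inhibitor of T cell receptor signals, at least 3.73-fold. The T cell marker list had 10 of 13 tested genes higher (7 with equal medians, and 1 lower), and its summed signal was 1724 to 2142 in the IL10_STAT samples and 803 to 1148 in the WT_STAT samples. Without WT_STAT 3, 7 were higher.

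Cytotoxic genes were led by Gzma, granzyme A, with 296, 321 and 341 in IL10_STAT and 7.22, 14.4 and 16.3 in WT_STAT (at least 15.2-fold, adjusted p = 4.71e-05). Gzmb, granzyme B, had 35.1, 36.2 and 35.3 in IL10_STAT and 10.3, 0 and 0.708 in WT_STAT (at least 1.74-fold, adjusted p = 0.0115). Cd8a, a chain of the CD8 co-receptor, was at least 2.57-fold higher, and Klrk1, the activating receptor NKG2D, rose by 1.13 ± 0.23. With quantile normalization Gzmb, Cd8a and Klrk1 did not pass (adjusted p = 0.12, 0.108 and 0.147). Of 9 tested markers of cytotoxic and NK cells 8 were higher, 6 with equal medians and 5 without WT_STAT 3 or without IL10_STAT 3, and 0 were lower in any of these.

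Regulatory and checkpoint genes were higher at 8 of 14 tested genes, and 0 were lower. Foxp3, the transcription factor of regulatory T cells, had 31.6, 35.2 and 44.4 in IL10_STAT and 18.1, 1.46 and 0 in WT_STAT (at least 1.79-fold, adjusted p = 0.0119). Ctla4, an inhibitory receptor, had 63.9, 152 and 111 in IL10_STAT and 16.6, 10.5 and 3.54 in WT_STAT (at least 4.94-fold, adjusted p = 0.000198). Cd274, the checkpoint ligand PD-L1, which interferon-gamma induces, rose to 287, 624 and 630.4 in IL10_STAT, against 78.98, 110.3 and 44.6 in WT_STAT (2.71 ± 0.37, adjusted p = 0.000198). Icos, a costimulatory receptor, rose by 2.25 ± 0.42.

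For B cell markers, 9 genes were tested and 0 passed on either scale. Ms4a1, which encodes CD20, had a signal of 319, 351 and 321 in IL10_STAT and 349, 298 and 61.6 in WT_STAT (0.82 ± 0.90, adjusted p = 0.467). Cd79b, a chain of the B cell receptor, had 165, 254 and 231 in IL10_STAT and 255, 167 and 64.4 in WT_STAT, and Cd22, an inhibitory co-receptor, 68.9, 95.1 and 97.98 in IL10_STAT and 104, 94.7 and 23.4 in WT_STAT. For each of the 3, the WT_STAT samples 1 and 2 lay at or near the IL10_STAT range and WT_STAT 3 far below it. The list median was 0.53 with WT_STAT 3 and -0.086 without it. Blnk, an adaptor of B cell receptor signalling, was high in all 6 samples and differed little (0.29 ± 0.21). The list of organised lymphoid tissue behaved alike in WT_STAT 3: 5 of 11 genes passed as higher, 3 without that sample and 2 without IL10_STAT 2 or 3, and the median was 1.07 with it and 0.26 without it. Ccl19, a chemokine of T cell zones, passed at 1.58 ± 0.55 but had 1.27, adjusted p = 0.107, without WT_STAT 3, and did not pass without IL10_STAT 2, IL10_STAT 3 or WT_STAT 1 (adjusted p = 0.108, 0.0989 and 0.0524) or with equal medians. Its receptor Ccr7 had 92.8, 131 and 166 in IL10_STAT and 33.7, 18.3 and 21.9 in WT_STAT, and passed with and without WT_STAT 3 (2.36 ± 0.58 and 2.30, adjusted p = 0.0186), though not with quantile normalization (adjusted p = 0.061). The labels do not state how much lymphoid tissue each piece of ileum held, and its part in these values was not tested.

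**Figure D3:**
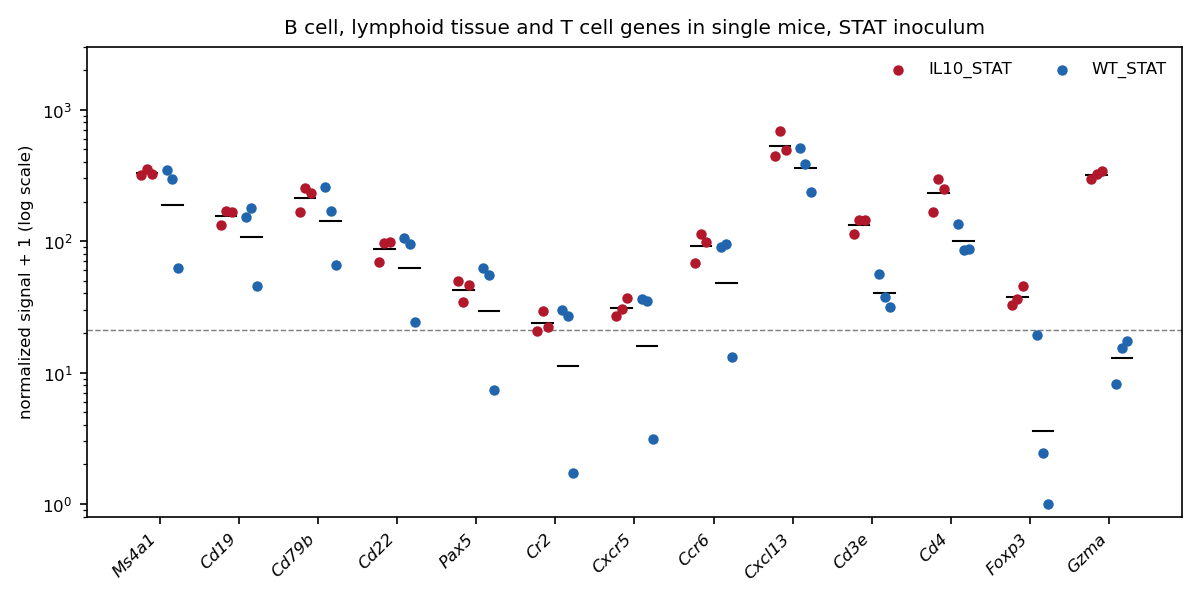
Points are the signal plus 1 of each mouse on a log axis, for 13 genes of B cells, lymphoid tissue and T cells, with IL10_STAT left of WT_STAT and black bars at the geometric mean of signal plus 1. The dashed line is a signal of 20. For Ms4a1, Cd79b and Cd22, 1 WT_STAT point (WT_STAT 3) lies far below the other 2, while Cd3e and Gzma separate the groups in all 6 mice.

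Plasma cell genes had no common direction. Prdm1, the factor Blimp-1, rose by 1.57 ± 0.34 (adjusted p = 0.00322), Xbp1, a regulator of secretory cells that epithelium also expresses, had 3984, 3839 and 3886 in IL10_STAT and 4793, 4077 and 4301 in WT_STAT, and Irf4, a lymphocyte factor, 69.6, 111 and 89.7 in IL10_STAT and 97.7, 72.7 and 74.3 in WT_STAT. Xbp1 did not overlap between the groups but did not pass (-0.17 ± 0.17), and Irf4 overlapped (0.13 ± 0.25).

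Macrophage and monocyte markers were mostly higher, with 1 lower gene, Cd163, which had the most negative difference of the panel. Cd163, which takes up haemoglobin and marks resident macrophages, measured 25.9, 7.24 and 14.7 in IL10_STAT and 239.7, 182 and 145 in WT_STAT (12.2-fold lower, -3.61 ± 0.45, adjusted p = 0.000114). Cd14, the co-receptor for bacterial lipopolysaccharide, had 885, 1442 and 1197 in IL10_STAT and 304, 318 and 309 in WT_STAT (1.89 ± 0.24, adjusted p = 0.00013). Msr1, a scavenger receptor for modified lipoproteins, had 117, 111 and 115 in IL10_STAT and 38.4, 24.8 and 17.7 in WT_STAT (2.11 ± 0.29, adjusted p = 0.000211). Cd163 and Msr1, both scavenger receptors, thus had non-overlapping groups in opposite directions. Marco, also a scavenger receptor, was at least 1.27-fold higher. Cx3cr1, a chemokine receptor of resident macrophages, and Csf1r, the receptor for the growth factor of macrophages, did not pass (0.082 ± 0.23 and 0.63 ± 0.27). The list had 7 of 10 tested genes higher (6 with equal medians), and its summed signal was 3118 to 3816 in the IL10_STAT samples and 1326 to 2057 in the WT_STAT samples.

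Dendritic cell markers were mixed, with 3 of 7 tested genes higher and 2 lower (0 lower without IL10_STAT 2, WT_STAT 1 or WT_STAT 2, and 1 without IL10_STAT 1). Itgax, the integrin CD11c, rose by 1.20 ± 0.35, and Cd209g, a lectin of the DC-SIGN family, fell to 9.76, 0 and 7.31 in IL10_STAT, against 54.02, 27.4 and 10.6 in WT_STAT (at least 1.25-fold lower, adjusted p = 0.0243, and 0.0572 to 0.0887 without IL10_STAT 2, WT_STAT 1 or WT_STAT 2). Batf3, a factor of cross-presenting dendritic cells, overlapped between groups (0.26 ± 0.22). Kit, the receptor of mast cells and of the pacemaker cells of the gut wall, fell to 76.6, 94.1 and 106 in IL10_STAT, against 584, 549 and 256 in WT_STAT (-2.24 ± 0.52, adjusted p = 0.00472).

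Complement genes moved both ways. C2, a protease of the classical pathway, had a signal of 395, 471 and 475 in IL10_STAT and 63.4, 63.6 and 40.3 in WT_STAT (8.03-fold, 3.01 ± 0.31, adjusted p = 3.31e-05). C6, a part of the membrane attack complex, was at least 3.69-fold higher. Cfd, factor D of the alternative pathway and a product of fat cells, had 127, 95.1 and 229 in IL10_STAT and 798, 2474 and 2295 in WT_STAT (11.7-fold lower, -3.55 ± 0.89, adjusted p = 0.00684). The spread of Cfd was wide within both groups, which still did not overlap. Of 19 tested genes 10 were higher and 3 lower, and with equal medians 5 and 4.

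Of 26 tested Toll-like receptor and NF-κB genes, 4 were higher, against 40% of the panel, and 1 was lower. Tlr8, an endosomal receptor of the family, rose by 1.33 ± 0.29 (adjusted p = 0.0695 with equal total signal), and Tlr5, the receptor for bacterial flagellin, fell to 19.6, 16.2 and 22.97 in IL10_STAT, against 97.7, 72.7 and 38.9 in WT_STAT (-1.70 ± 0.49, adjusted p = 0.0148, and 0.0506 without IL10_STAT 2 and 0.0574 without WT_STAT 1). Nfkb1, a subunit of NF-κB, had 717, 703 and 784 in IL10_STAT and 878, 805 and 526 in WT_STAT. With equal medians 11 of the genes were lower, so the list's direction depends on the scale.

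Among adhesion genes, Icam1 and Vcam1, ligands of leukocyte integrins on activated endothelium, rose by 1.67 ± 0.27 and 1.65 ± 0.29, and Itgal, the integrin chain that binds Icam1, by 1.76 ± 0.29 (437, 502 and 578 in IL10_STAT and 180.4, 165 and 109.7 in WT_STAT). The list had 5 of 14 tested genes higher on both scales and 2 lower with equal medians only.

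Among the lower genes were some of epithelium, of stroma and of the TGF-β axis. Abcb1a, the efflux pump of the brush border, had a signal of 1681, 1035 and 1282 in IL10_STAT and 7781, 9125 and 4647 in WT_STAT (5.29-fold lower, -2.40 ± 0.57, adjusted p = 0.00488). Cd36, a fatty acid transporter of enterocytes that macrophages and capillaries also express, had 138, 148 and 178 in IL10_STAT and 848, 865 and 461 in WT_STAT (-2.17 ± 0.35, adjusted p = 0.000501). Dpp4, a brush border peptidase, had 134, 152 and 161 in IL10_STAT and 516, 483 and 263 in WT_STAT (-1.43 ± 0.43, adjusted p = 0.0167, and 0.0501 to 0.0580 without IL10_STAT 1, WT_STAT 1 or WT_STAT 2). No sample of one group reached the other for any of the 3. Pigr, which carries IgA across the epithelium, had 35128, 32302 and 34984 in IL10_STAT and 38291, 35701 and 21046 in WT_STAT, so these epithelial genes did not all differ alike. Of 7 tested epithelial markers 3 were lower and 1 higher (Nox1) on both scales, and the summed signal was 64120.1 to 68178 in the IL10_STAT samples and 44064 to 70593 in the WT_STAT samples, which overlapped.

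Ccl25, the chemokine of small intestinal epithelium that draws lymphocytes to the gut, had 85.03, 80.1 and 90.6 in IL10_STAT and 344, 267 and 241 in WT_STAT (-1.71 ± 0.57, adjusted p = 0.0269, and 0.0563 to 0.0792 without any 1 of the 6 samples but WT_STAT 3). Ccrl1, now named Ackr4, a receptor that scavenges Ccl25 and Ccl19, had 58.3, 47.2 and 40.3 in IL10_STAT and 336, 284 and 212 in WT_STAT (5.57-fold lower, -2.48 ± 0.23, adjusted p = 1.55e-05). Ligand and scavenger were thus both lower, with no overlap.

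Cd109, a co-receptor that restrains TGF-β signalling, had a signal of 67.4, 43.2 and 49.3 in IL10_STAT and 496, 565 and 216 in WT_STAT (7.37-fold lower, -2.88 ± 0.39, adjusted p = 0.000198). Tgfb3, a ligand, had 67.4, 58.2 and 64.2 in IL10_STAT and 194, 172 and 129.5 in WT_STAT (-1.36 ± 0.26, adjusted p = 0.0014), and Tgfb2 was at least 1.52-fold lower with groups that overlapped (9.76, 9.24 and 14.7 in IL10_STAT and 54.02, 44.2 and 12.03 in WT_STAT, adjusted p = 0.0294, and 0.0815 to 0.118 without WT_STAT 1 or 2 or IL10_STAT 1 or 2). The receptors Tgfbr1 and Tgfbr2 did not pass (-0.34 ± 0.32 and -0.26 ± 0.27). Of 9 tested genes of the axis, 3 were lower and 0 higher, and with equal medians 8 were lower.

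Of 8 tested markers of endothelium and stroma, 2 were lower, 1 was higher (Vcam1, above) and 5 did not pass, and with equal medians 7 were lower. Cd34, a marker of endothelium and fibroblasts, had 334, 199.9 and 241 in IL10_STAT and 969.8, 1004 and 505 in WT_STAT (-1.64 ± 0.32, adjusted p = 0.00173), and Cxcl12, a chemokine of stromal cells, 1437, 1489.9 and 1372 in IL10_STAT and 3173, 2868 and 1849 in WT_STAT (-0.84 ± 0.23, adjusted p = 0.01). Outside this list, Ncam1, an adhesion molecule of nerves and some lymphocytes, was lower (-1.94 ± 0.47, adjusted p = 0.00552). Also outside it, Hlx, a homeobox factor of gut mesenchyme, had 36.5, 64.1 and 60.1 in IL10_STAT and 215, 176 and 135 in WT_STAT (-1.71 ± 0.27, adjusted p = 0.000456). Pecam1 and Pdgfrb, markers of endothelium and of pericytes, overlapped between the groups, with WT_STAT 3 the lowest of all 6 samples for both (953, 746 and 335 for Pecam1 in WT_STAT, where IL10_STAT had 538, 504 and 519). The summed signal of the endothelial and stromal markers was 3093 to 3282 in the IL10_STAT samples and 3143 to 6019 in the WT_STAT samples.

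**Figure D4:**
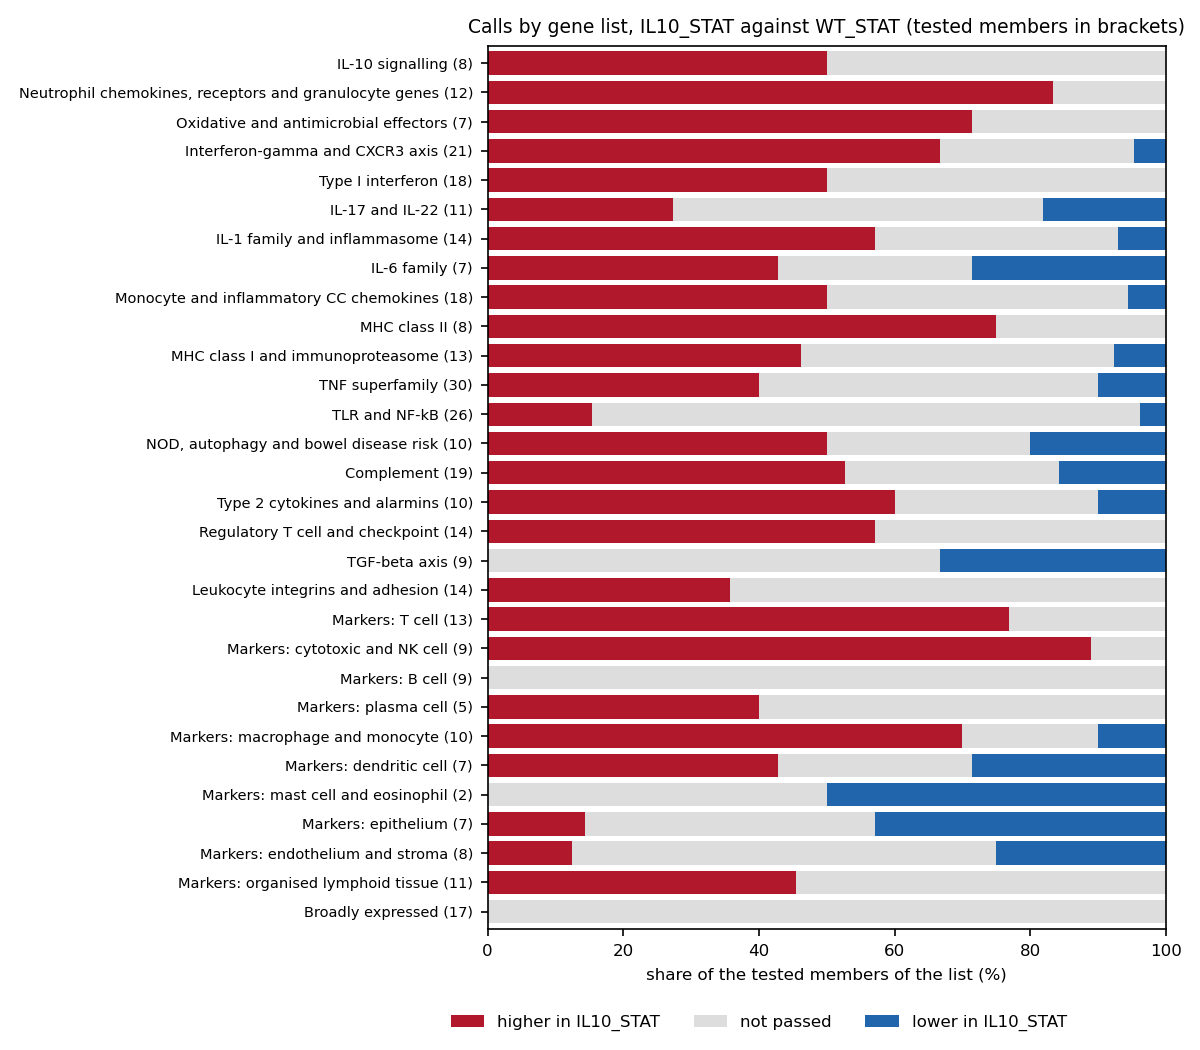
Bars give, for each gene list, the share of its tested members (number in brackets) that passed as higher in IL10_STAT (red), did not pass (grey) or passed as lower (blue), in percent. Cytotoxic, neutrophil, T cell and MHC class II lists have the widest red parts, the TGF-β axis is blue and grey only, and the B cell and broadly expressed lists are grey throughout.

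Broadly expressed genes gave a reference for the scale. Of 17 tested genes such as Psmb7 and Mapk14, 0 passed, with a median of -0.12 and a summed signal of 15216 to 17232 in the IL10_STAT samples and 14277 to 18633 in the WT_STAT samples. With equal medians 11 of them were lower, with a median of -0.64, so they do not settle which scale is right. Common reference genes such as Hprt, Tbp and Gapdh were not in the data, and the 17 include signalling genes such as Irak1 and Traf6. At an unadjusted p under 0.05, 192 genes of the panel were higher and 58 lower. Under scaling on the broadly expressed genes, 211 genes passed as higher and 65 as lower.

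The genotype-label difference under the STAT inoculum was then set against that under the control inoculum, which rests on 6 other mice. Across genes, which are not independent replicates, the log2 differences under the 2 inocula had a Pearson correlation of 0.913, and 391 of 457 had the same sign. The interaction, the difference under STAT less that under control, passed for 0 of 457 genes (0%) in limma's test, with a smallest adjusted p of 0.0815 and 97 genes at an unadjusted p under 0.05, 1 above 0 and 96 below. The 95% interval of the interaction lay within 1 log2 unit of 0 for 81 genes (17.7%), so for most genes these 12 mice did not bound it that closely. Its median was -0.48 over the panel, and 0.17 with equal medians. At an unadjusted limma p under 0.05, 32 genes were above 0 and 27 below with equal medians. With quantile normalization these counts were 19 and 31, with equal total signal 14 and 62, and scaled on broadly expressed genes 2 and 84. The balance of directions thus depends on the scale. Without WT_STAT 3, 58 genes passed, all below 0, and with samples weighted by their precision 132, all below 0. A single gene passed without WT_STAT 2, above 0, and a single gene without WT_control 3, below 0.

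Irf4 and Batf3 had the smallest interaction p, and both were uncalled under STAT. Irf4 differed by 0.13 ± 0.25 under STAT and by 2.03 ± 0.25 under control, an interaction of -1.90 ± 0.35 (adjusted p = 0.0815). Batf3 differed by 0.26 ± 0.22 under STAT and by 1.84 ± 0.22 under control (-1.59 ± 0.31, adjusted p = 0.0815). Cd163 differed by -3.61 ± 0.45 under STAT and -1.10 ± 0.45 under control, and Il18 by -1.41 ± 0.22 and -0.16 ± 0.22, with interactions of -2.52 ± 0.63 and -1.25 ± 0.32 (adjusted p = 0.104 for both). Mr1 likewise differed by -1.65 ± 0.25 under STAT and -0.22 ± 0.25 under control. The increase of Ccl8 was 2.22 ± 0.35 under STAT and 4.45 ± 0.35 under control (-2.23 ± 0.49, adjusted p = 0.104), and that of Cd2, a T cell adhesion receptor, 1.28 ± 0.35 (adjusted p = 0.0506 with equal medians) and 3.13 ± 0.35 (-1.84 ± 0.49). Also among the 12 smallest were Cxcl12 (-1.21 ± 0.32), Cx3cr1 (-1.26 ± 0.33), Il7r, the IL-7 receptor (-1.55 ± 0.41), Slamf7, a receptor of plasma cells and lymphocytes (-1.10 ± 0.29), and Map4k1, a kinase of lymphocytes (-1.41 ± 0.38), all at an adjusted p of 0.104. All 12 lay below 0, and 0 passed with all samples. Without WT_STAT 3, all 12 passed, at adjusted p of 0.0278 to 0.0455, and with array weights all 12, at 0.00393 to 0.0131. The weights were lowest for WT_control 3 (0.121) and WT_STAT 3 (0.189), and highest for IL10_STAT 3 (4.36). Weighting thus played down WT_STAT 3 as well, and is not independent of leaving it out. WT_control 3 had the lowest total signal of the series (213509). Without WT_control 3 a single one of the 12 passed, and without any other 1 sample, or under the 4 other scalings, 0 did.

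List medians are read here against panel medians of 0.50 under STAT and 1.01 under control. For the class II list the median was 2.22 under STAT and 3.20 under control. Without WT_STAT 3 the interaction passed for 7 of 8 class II genes, against 58 of 457 over the panel. For B cell markers the medians were 0.53 under STAT, near that of the panel, and 2.25 under control. The neutrophil list had 5.13 under STAT and 4.45 under control, with 0 interactions passed with or without WT_STAT 3. Nos2 differed by 5.71 ± 0.34 under STAT and 5.22 ± 0.34 under control, and S100a8 by 8.52 ± 1.58 and 7.84 ± 1.58. Il17f had the largest interaction above 0, 3.10 ± 0.87 (adjusted p = 0.104), with 21.6, 10.2 and 10.5 in IL10_control and 4.98, 5.12 and 15.3 in WT_control. Its signal lay near or under 20 in all groups, where the difference depends on the 1 added. Genes with an interaction above 0 at an unadjusted limma p under 0.05 numbered 1 here. There were 0 with values under 20 set to 20, and 2 with a pseudocount of 20. Other scalings gave 2 (broadly expressed genes), 14 (total signal), 19 (quantiles) and 32 (equal medians), so this count depends on the scale.

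**Figure D5:**
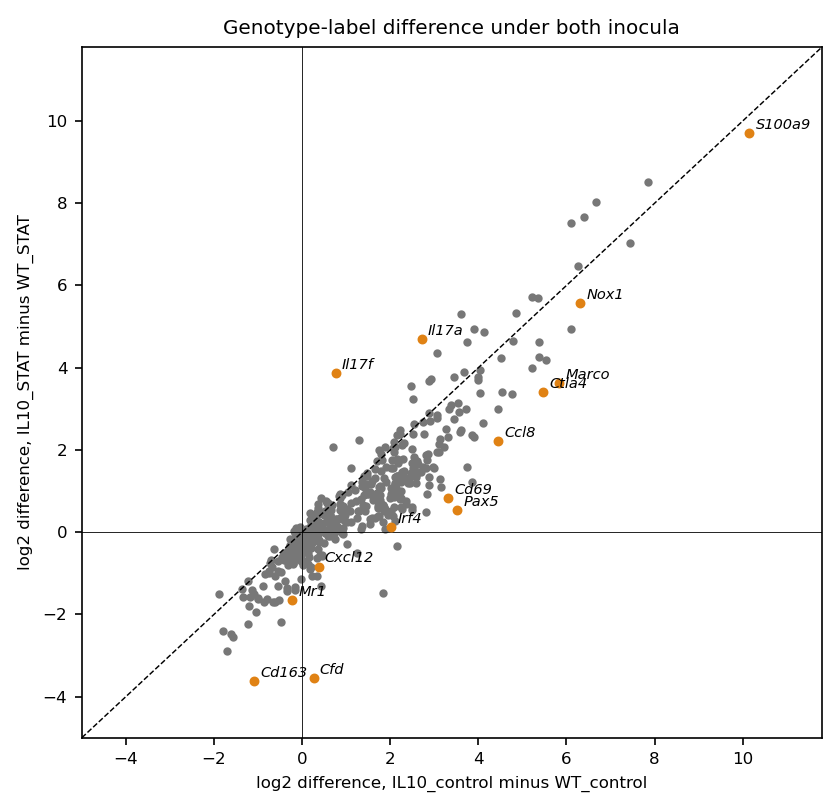
Each point is 1 of the 457 tested genes, with the log2 difference IL10_control minus WT_control on the x axis and IL10_STAT minus WT_STAT on the y axis, and the dashed line marks equal differences. On the deposited scale shown, most points follow the line or lie below it, 394 of 457 having an interaction below 0. Orange points with names mark genes such as Il17f above the line and Cd163, Cfd and Ccl8 below it.

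At the threshold, the members nearest to it are given as a description. Cd160, a receptor of intraepithelial lymphocytes, passed at an adjusted p of 0.0476 (1.53 ± 0.59), and Cd96, a receptor of T and NK cells, at 0.043. Cd160 lost its call whichever of the 6 STAT samples was left out (adjusted p = 0.0574 to 0.136). Cd96 lost its call without IL10_STAT 1, IL10_STAT 2, WT_STAT 2 or WT_STAT 3 (adjusted p = 0.0719 to 0.161). With equal medians neither passed (adjusted p = 0.106 and 0.625). Cd244, a receptor of NK cells, did not pass at 0.0527 (0.66 ± 0.26), nor did Tigit, a checkpoint receptor, at 0.0539. The 90 genes left out were under 20 in every IL10_STAT sample for 84 and in every WT_STAT sample for 89, and they have no call.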

How the data were processed

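RNA of the terminal ileum (TRIzol, then RNeasy columns) was measured with NanoString probe pairs, per the labels' protocols. The authors deposited 1 table of 547 genes and 12 samples as a normalized linear signal; how it was scaled is not given in the sources used here, and 0 columns belonged to no sample. Of the positive values, 100% in every sample lay on a grid of 1 step size (within 0.01 steps), from which counts above background were computed. The grid did not pass through 0, so no count test was run.

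Samples were grouped by their description labels and numbered in the order of the records, which pairs nothing. Genes reaching a signal of 20 in 3 or more samples were tested (457 of 547) with limma 3.58.1 in R 4.3.3 (lmFit, eBayes) on log2(signal + 1), with 1 coefficient for each of the 4 groups and Benjamini-Hochberg adjustment over the 457 genes. The script was tested on simulated data. Alternatives were 4 other scalings (sample medians, quantiles, broadly expressed genes, total signal), other filters and pseudocounts, a floor of 20, an intensity trend, array weights, only the 6 STAT samples, and each sample left out. Of the symbols 531 were current, 14 synonyms and 2 unmatched in RefSeq.

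The rule named Il10, the 15 largest increases and decreases whose groups did not overlap, up to 8 genes of each list (4 by size, 2 by p, 2 nearest 0), the 12 smallest interaction p, the 5 genes nearest the threshold on either side and a fixed set of cytokines; fewer are described. The genes, lists and tests were chosen with earlier results of these data known.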

Additional observations from a re-analysis of the deposited data

Results flagged for a closer look

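Cxcl12, the stromal chemokine, had groups that did not overlap, in opposite directions under the 2 inocula on the deposited scale. Under STAT its signal was 1437, 1490 and 1372 in IL10_STAT, below all of 3173, 2868 and 1849 in WT_STAT. Under control it was higher in every IL10_control sample than in every WT_control sample, by a log2 difference of 0.37 ± 0.23, which is below the control panel median of 1.01. The control difference was 0.30 when scaled on broadly expressed genes, but -0.80 with equal medians, -0.12 with quantile normalization and -0.66 with equal total signal, so its direction under control depends on the scale. The interaction was -1.21 ± 0.32, and it did not pass over all genes (adjusted p = 0.104 in limma's test). The call turned on WT_STAT 3, without which it was -1.45 (adjusted p = 0.0278), and on array weights (-1.27, adjusted p = 0.00393). Array weights gave WT_STAT 3 a low weight (0.189). Without any other 1 sample the adjusted p was 0.0807 to 0.244.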

How the results depend on the processing

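The scaling, array weights and WT_STAT 3 each changed counts or calls. With array weights 328 genes passed, against 236 without them and 276 to 302 under the other scalings. The panel median of 0.50 was 0.61 when scaled on broadly expressed genes, and turned to -0.019 with equal sample medians, -0.11 with quantile normalization and -0.17 with equal total signal, a scaling chosen after seeing the data. It was 0.40 with a pseudocount of 20, 0.37 with values under 20 set to 20 and 0.32 with array weights. The 53 lower genes became 145 with equal medians, 158 with quantiles, 183 with total signal (119 higher) and 117 with array weights. The share of higher among passed genes was 77.5%, and it was 48.4%, 44.4% and 39.4% under the first 3 of these. In all, 162 genes (111 higher, 51 lower) passed in the same direction under the 4 other scalings. Without 1 sample at a time, over all 12 samples, 190 to 260 genes passed, 153 to 195 higher and 29 to 66 lower, with panel medians of 0.24 to 0.60. Over the 6 STAT samples, 176 genes (147 higher, 29 lower) passed whichever was left out. The interaction passed for 0 to 58 genes when 1 sample was left out (58 without WT_STAT 3, 1 without WT_STAT 2 or WT_control 3) and for 132 with array weights. The causes of these changes were not tested.

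Among the genes named, the log2 difference changed sign for some. With equal medians these were Batf3 -0.27, Blnk -0.24, Casp1 -0.43, Cd22 -0.042, Cx3cr1 -0.44, H2-Ob -0.26, Il7r -0.12, Irf4 -0.39, Nfkb1 -0.49, Pigr -0.37 and Psmb7 -0.44. With quantiles they were Batf3 -0.68, Blnk -0.020, Casp1 -0.022, Cd22 -0.32, Cd244 -0.073, Cd96 -0.60, Cx3cr1 -0.50, H2-Ob -0.36, Il7r -0.22, Irf4 -0.60, Nfkb1 -0.44, Pigr -1.01 and Psmb7 -0.31. With total signal they were Batf3 -0.40, Blnk -0.39, Casp1 -0.58, Cd22 -0.19, Cd244 -0.00593, Cd79b -0.074, Csf1r -0.045, Cx3cr1 -0.59, H2-Ob -0.40, Il7r -0.27, Irf4 -0.54, Nfkb1 -0.65, Pigr -0.52, Psmb7 -0.60, Slamf7 -0.044 and Stat3 -0.063. Array weights gave Cx3cr1 -0.088, H2-Ob -0.083, Nfkb1 -0.11 and Pigr -0.060, and scaling on broadly expressed genes Mx1 0.086. With 1 sample left out, ranges that crossed 0 were Irf4 -0.032 to 0.30, Mx1 -0.24 to 0.12, Nfkb1 -0.20 to 0.17, Pecam1 -0.70 to 0.058, Cd22 -0.20 to 0.85, Cx3cr1 -0.16 to 0.29, H2-Ob -0.29 to 0.65 and Pigr -0.12 to 0.32. Cd96 and Slamf7 had passed as higher, and the others had not passed.

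No paired analysis was possible because the labels give the samples no shared replicate numbers. The number of mice, 3 a group, and the unstated normalization limit the precision.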
